A study of Mus musculus with 4 samples.

Results

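The genes described here are the 34 genes of the tricarboxylic acid (TCA) cycle and of mitochondrial fatty acid oxidation given as a list of symbols, together with the genes that bring pyruvate, fatty acids and amino acid carbon into these pathways. All 34 symbols were found among the 55536 annotated genes of the tables. The rule that set the list used no measured value, but the list was chosen with earlier results of these data known. They were measured by polyA RNA sequencing in inflammation-experienced regulatory T cells (Treg), CD4 T cells that restrain immune responses and are defined by the transcription factor Foxp3. The cells came from 1 male adult mouse of 6 months, strain Foxp3CreERT2 x Rosa26YFP, in which the Foxp3 gene drives a tamoxifen-inducible Cre recombinase and the Rosa26 locus carries a yellow fluorescent reporter. The labels name the source as primary cells that originated from a bone marrow hematopoietic cell, and the sources used here do not say what treatment or sort stands behind "inflammation-experienced". There is 1 group of 4 libraries, numbered by the labels as technical replicates 1 to 4 of biological replicate 1. No conditions could therefore be compared, and every p-value below measures only the spread between these libraries, which may be technical.

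In the mitochondrion, the pyruvate carrier and the pyruvate dehydrogenase complex turn pyruvate into acetyl-CoA. The carnitine shuttle and the beta-oxidation spiral make acetyl-CoA from long-chain fatty acids. The TCA cycle oxidises acetyl-CoA and passes electrons to the respiratory chain as NADH and FADH2, and the electron transfer flavoprotein carries those from the acyl-CoA dehydrogenases. Treg are known in the field as T cells that draw on oxidative metabolism and fatty acid oxidation, whereas effector T cells rely more on glycolysis. RNA levels do not measure the activity of these enzymes, many of which are regulated by phosphorylation, acetylation or substrate supply.

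The libraries held 9284432, 9341328, 9325636 and 6648385 expected counts in genes, so library 4 was the shallowest. Values come from the main of 3 deposited quantifications unless they name the table made from reads and an index, or the older counts, made on an earlier annotation. The Treg and T cell markers were all present, and Foxp3 itself read 20.3, 21.7, 32.8 and 36.4 TPM in libraries 1 to 4. Markers of other cell types moved between libraries. The 6 erythroid markers summed to 1067, 4.60, 38.6 and 17.5 TPM, the 6 B cell markers to 1421, 1088, 1238 and 848 TPM, the 7 myeloid markers to 40.7, 10.8, 8.49 and 21.3 TPM and the 5 CD8 and NK cell markers to 26.3, 28.5, 22.6 and 47.2 TPM. All 6 erythroid markers were highest in library 1, and Hba-a1 was at 0 in library 2 and Hbb-bt in library 4. Among the others, Ncr1 was at 0 in libraries 2 and 4, and S100a9 in libraries 2, 3 and 4. The library 4 value of the CD8 and NK cell sum came mostly from Gzmb, at 7.70, 17.1, 10.3 and 31.4 TPM in libraries 1 to 4. Cd8a was also highest in library 4, at 3.88 TPM. Cd8b1 was highest in library 1, at 14.2 TPM, and Klrb1c was lowest in library 4, at 0.12 TPM. The part of cells of other types in the values below was not tested. A value without library 1 leaves out that library as a whole, so it does not test this part either.

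All 34 genes were detected at 1 TPM (a level corrected for transcript length and library size) or more in every library, against 45.2% of nuclear protein-coding genes. At 10 TPM or more in every library there were 32 of them, against 28.1%. Their median level was 65.4 ± 5.43 TPM (SD, n = 4 libraries, as for all ± values on TPM below), and the median of the 9953 protein-coding genes at 1 TPM or more in every library was 20.1 TPM. The coefficient of variation over libraries was 13.3% in the median gene and ran from 1.90% to 48.7%, while the interval that the authors deposited beside each TPM had a half-width of 8.17% in the median gene. Together they held 0.294% of all TPM, and Mdh2 alone made up 17.5% of their sum. Ordered by mean level, 31 of the 33 neighbouring pairs of genes had overlapping library values. The 2 exceptions were Mdh2 over Mpc1 at the top and Got2 over Dld in the middle of the order. By these ranges the rank of most genes is not resolved. The ranges were compared across libraries and not within each library. Some overlapping pairs, such as Idh2 over Cpt2 and Cpt2 over Dlat, kept their order within every library. Others, such as Mpc1 over Etfb, did not. The plot of levels by role shows the range from Mdh2 down to Dlat.

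**Figure D1:**
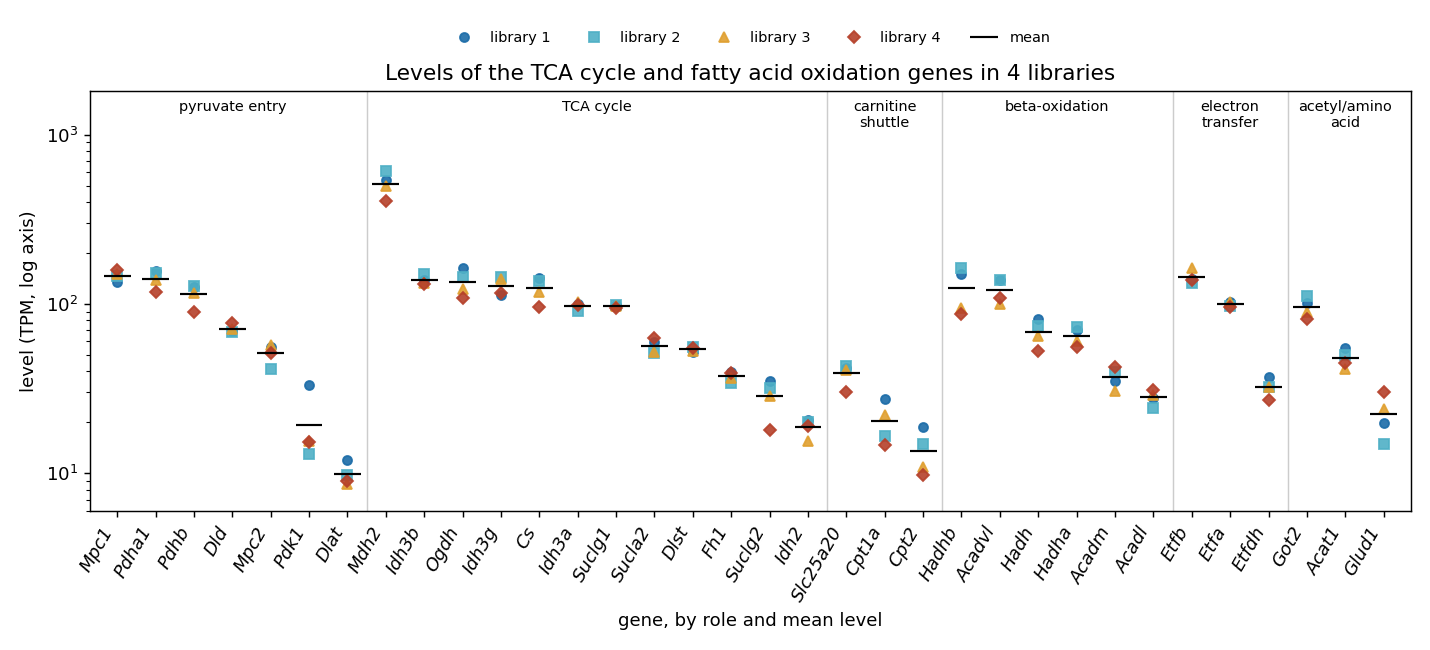
Level of each of the 34 genes in TPM on a log axis, grouped by role and ordered by mean level within a role. Symbols are the 4 libraries and black bars their mean. Mdh2 lies above all other genes in every library, and the library 1 value of Pdk1 stands above its other values.

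The pyruvate entry genes summed to 554 ± 28.7 TPM. Mpc1, a subunit of the mitochondrial pyruvate carrier (chr17:8282904-8297661), read 134, 145, 151 and 158 TPM in libraries 1 to 4. Its partner subunit Mpc2 read 56.02, 41.2, 57.2 and 51.6 TPM, below Mpc1 in every library. The pyruvate dehydrogenase complex was uneven in RNA. Pdha1 and Pdhb, which encode the alpha and beta subunits of its E1 component, stood at 141 ± 17.9 TPM and 114 ± 17.8 TPM. Dld, the E3 subunit that the complex shares with the 2-oxoglutarate dehydrogenase complex, stood at 71.02 ± 3.98 TPM. Dlat, the E2 acetyltransferase that forms the core of the complex (chr9:50634633-50659780), was the lowest of all 34 genes by mean in the main table. It read 11.9, 9.76, 8.68 and 8.99 TPM, below 10 TPM in 3 of 4 libraries, and its rounded expected counts were 211, 157, 207 and 94.

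Pdk1, a kinase that phosphorylates E1 and switches the complex off (chr2:71873224-71903858), read 33.4, 13.02, 15.6 and 15.3 TPM. Library 1 stood apart from the other 3 libraries, which lay between 13.0 and 15.6 TPM. Its scaled count spanned 2.05-fold between the highest and lowest library (adjusted p = 2.8e-34, likelihood ratio test between libraries), the widest span of the 34 genes. Without library 1 the span was 1.17-fold and the call was lost (adjusted p = 0.21). The sums of the erythroid, B cell and myeloid markers were highest in library 1 too, and their part in this value was not tested.

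Mpc1 has transcripts that nearly coincide, and the split between them shows how far the tables resolve this gene. Mpc1-208 holds an exon of 4 bases at chr17:8293415-8293418 (mm10, plus strand), and Mpc1-201 takes another exon of 4 bases at chr17:8296527-8296530. The 60-base windows around that exon differ at 1 base. The processed pseudogene Mpc1-ps, on chromosome 12 (chr12:110858565-110858894, minus strand), carries the window of Mpc1-208 with 0 mismatches. The windows are shown with the exon, or the matching bases of the pseudogene, in capitals.
Mpc1-208: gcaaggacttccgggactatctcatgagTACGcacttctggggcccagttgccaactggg
Mpc1-201: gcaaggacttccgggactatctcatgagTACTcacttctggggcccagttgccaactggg
Mpc1-ps: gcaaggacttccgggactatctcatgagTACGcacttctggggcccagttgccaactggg
Apart from that base, 919 of the 920 bases of Mpc1-201 are found in Mpc1-208. The main table gave Mpc1-208 37.4% ± 13.3 and Mpc1-201 36.7% ± 11.3 of the gene's TPM (SD, n = 4), with Mpc1-208 at 56.6%, 36.02%, 29.98% and 27.1% in libraries 1 to 4. The second deposited table, made from the reads and an index, gave Mpc1-208 88.9% ± 2.44 and placed 0 counts on Mpc1-201. It also placed only 14, 8, 0 and 20 counts on Mpc1-ps, where the main table placed 93, 74, 57 and 64.

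The 12 TCA cycle genes summed to 1427 ± 140.0 TPM, the largest sum of any role. Mdh2, the malate dehydrogenase that closes the cycle by making oxaloacetate (chr5:135778480-135790398), read 538, 607, 499.7 and 407 TPM and was the highest of the 34 in every library. Citrate synthase, encoded by Cs and the entry step of the cycle, stood at 123 ± 20.98 TPM. The NAD-dependent isocitrate dehydrogenase subunits Idh3a, Idh3b and Idh3g stood at 97.8 ± 4.67 TPM, 138 ± 8.49 TPM and 128 ± 16.04 TPM. Idh2, the NADP-dependent mitochondrial isocitrate dehydrogenase, read 20.5, 20.1, 15.4 and 19.1 TPM in libraries 1 to 4. It was the lowest of the TCA genes by mean and in libraries 1, 2 and 3, while Suclg2 was the lowest in library 4 and, by mean, in the older counts. Its highest library lay below the lowest library of each Idh3 subunit.

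The E1 gene of the 2-oxoglutarate dehydrogenase complex, Ogdh, read 164, 145, 122 and 108 TPM, and its E2 partner Dlst read 51.9, 56.05, 52.5 and 55.2 TPM. The groups of values do not overlap, with Ogdh above Dlst in every library. Succinyl-CoA ligase joins the shared alpha subunit Suclg1 with an ATP-forming beta subunit, Sucla2, or a GTP-forming one, Suclg2. Suclg1 stood at 96.98 ± 1.84 TPM and had the smallest coefficient of variation of TPM in the main table, 1.90%. By scaled counts it spanned 1.15-fold and passed the test between libraries (adjusted p = 0.027), and Idh3a had the narrowest span, 1.06-fold. Sucla2 read 59.4, 51.1, 51.8 and 62.9 TPM and Suclg2 35.1, 32.1, 28.6 and 18.04 TPM, so the ATP-forming subunit was the higher in every library. Library 4 had the lowest Suclg2 value, and the span of its scaled count fell from 1.98-fold to 1.31-fold without that library. Fh1, the fumarase, stood at 37.4 ± 2.57 TPM and did not pass the test between libraries (adjusted p = 0.092).

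The 3 carnitine shuttle genes summed to 72.9 ± 13.7 TPM. Slc25a20, Cpt1a and Cpt2 stood at percentiles 68.1, 50.2 and 39.1 of the protein-coding genes at 1 TPM or more in every library, around the middle of their range. Slc25a20, the carnitine-acylcarnitine carrier of the inner membrane (chr9:108662088-108684641), read 42.1, 43.2, 40.5 and 30.4 TPM. Cpt1a, the outer membrane carnitine palmitoyltransferase and the regulated entry step of long-chain fatty acid oxidation, read 27.5, 16.6, 22.1 and 14.7 TPM. Cpt2, which releases the fatty acid to CoA in the matrix (chr4:107903981-107923610), read 18.7, 14.9, 10.9 and 9.79 TPM and was the lowest of the 3. All 3 differed between libraries, with spans of 1.55, 1.85 and 2.04-fold, and all 3 were lowest in library 4. Cpt2 and Cpt1a were highest in library 1, and Slc25a20 in library 2. In each library Slc25a20 was above both transferases.

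The beta-oxidation genes summed to 444 ± 75.3 TPM. Among the acyl-CoA dehydrogenases of the first step, Acadvl (very long chains) read 139, 139, 100.3 and 108 TPM, Acadm (medium chains) 35.3, 39.7, 30.6 and 42.3 TPM and Acadl (long chains) 27.9, 24.4, 29.1 and 30.9 TPM. Acadvl was above both others in every library, and Acadm was above Acadl in each library by a narrower margin. Hadh, the 3-hydroxyacyl-CoA dehydrogenase for shorter chains, stood at 68.4 ± 12.5 TPM.

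Hadha and Hadhb encode the alpha and beta subunits of the mitochondrial trifunctional protein, which runs the last 3 steps of each round on long chains. Hadhb (chr5:30155248-30184593, plus strand) read 151, 162, 94.8 and 87.3 TPM and was the highest of the beta-oxidation genes by mean in the main table, while Acadvl was in the older counts. Hadha (chr5:30118304-30155162, minus strand) read 70.5, 72.8, 60.05 and 55.8 TPM, below Hadhb in every library. The genes lie head to head on chromosome 5, and the annotated gene starts are separated by 85 bases. That gap, chr5:30155163-30155247 (mm10, plus strand, from the RefSeq promoter table on GRCm38.p6), is shown because both genes start from its ends. It holds 2 copies of the GC box GGGCGG, in capitals.
Hadha-Hadhb gap: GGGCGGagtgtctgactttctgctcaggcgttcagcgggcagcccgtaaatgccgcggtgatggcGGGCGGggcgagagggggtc
Both genes had their highest scaled count in library 2 and their lowest in library 4, where Hadhb was level with library 3 (147.8 against 148.4 CPM). The spans were 1.42-fold for Hadha and 1.88-fold for Hadhb.

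The RNA of Hadha was mostly not assigned to its coding transcript. Hadha-205, the protein-coding transcript of 4017 bases, held 15.97% ± 1.05 of the gene's TPM (SD, n = 4). Hadha-201, a transcript of 2552 bases annotated as a processed transcript without a coding sequence, held 53.7% ± 3.06, with 689, 705, 562 and 385 rounded expected counts against 304, 375, 289 and 169 for Hadha-205. Every base of Hadha-201 is found in Hadha-205, so reads within the shared part cannot tell them apart. Besides its ends, Hadha-201 differs by lacking a stretch of 157 bases from the end of exon 18 and the start of exon 19 of the 20 exons of Hadha-205, all of it coding. The stretch removes 32 bases of exon 18 and 125 bases of exon 19, between chr5:30120066 and chr5:30120719 on mm10, and its length is not a multiple of 3. Below are the spliced sequences around it on the minus strand of chr5:30119952-30120749, with the missing stretch in capitals.
Hadha-205: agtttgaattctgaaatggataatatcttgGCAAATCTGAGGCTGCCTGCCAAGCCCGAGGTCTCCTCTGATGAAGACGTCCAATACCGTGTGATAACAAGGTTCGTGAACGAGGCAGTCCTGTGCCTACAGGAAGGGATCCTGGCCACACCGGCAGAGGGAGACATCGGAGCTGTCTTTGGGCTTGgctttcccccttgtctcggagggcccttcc
Hadha-201: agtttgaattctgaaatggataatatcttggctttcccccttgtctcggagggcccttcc
The missing stretch is bordered by a direct repeat of 6 bases, so the point of joining can be placed in more than one way. None of the placements starts with GT and ends with AG. The table made from reads and index also put most of the level on Hadha-201, at 54.5% ± 1.28, with 9.26% ± 1.15 on Hadha-205.

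The electron transfer genes summed to 275 ± 17.2 TPM and had the lowest median span of the roles, 1.23-fold. Etfb, the beta subunit of the electron transfer flavoprotein, read 139.8, 133, 162 and 138 TPM. Etfa, the alpha subunit, read 102, 97.4, 103 and 95.5 TPM. Etfdh, the dehydrogenase that hands the electrons to ubiquinone, read 37.2, 32.4, 32.5 and 26.9 TPM and lay below both in every library. Etfa did not pass the test between libraries (adjusted p = 0.15). Etfa over Etfb came to -0.52 ± 0.09 on the log2 scale of TPM + 0.1 (SD, n = 4) and turned to 0.32 ± 0.11 without the correction for length, with 1392 bases in the transcript Etfa-201 and 893 in Etfb-201.

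Of the genes that connect the cycle with amino acids and ketone bodies, Got2, the mitochondrial aspartate aminotransferase of the malate-aspartate shuttle, read 101, 111, 89.4 and 81.2 TPM. Acat1, the acetoacetyl-CoA thiolase of ketone body and isoleucine breakdown, stood at 47.7 ± 5.74 TPM. Glud1, the glutamate dehydrogenase, read 19.8, 14.98, 24.03 and 30.2 TPM. Glud1 was the one member with a span over 1.5-fold that was highest in library 4 and lowest in library 2 (span 1.89-fold, adjusted p = 5.3e-24). Got2 ran the other way, highest in library 2 and lowest in library 4, with a span of 1.52-fold.

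A likelihood ratio test asked, for 13045 genes, if the libraries differed in a gene's share of counts by more than counting noise, with p-values adjusted by Benjamini-Hochberg over all of them at 0.05. Of the 34 genes, 29 passed. The background was 68.6% of all tested genes and 85.7% of the 6522 genes whose mean count reached 200, a set added after seeing the data, which is nearer to the depth of these genes (mean counts of 167 to 4202). The share of the 34 is thus near that of genes with such counts. The 5 that did not pass were Mpc2, Idh3a, Fh1, Acadl and Etfa, with adjusted p from 0.092 to 0.67. With a span of at least 1.5-fold in addition there were 14 genes, against 36.9% of all tested genes and 28.7% of the deeper ones. The median span of the 34 was 1.43-fold, against 1.49-fold in all tested genes and 1.36-fold in the deeper ones. Pdk1 and Cpt2 were the only 2 past 2-fold. Pdk1 fell to 1.17-fold without library 1 and 1.89-fold without library 3, Cpt2 fell to 1.74-fold without library 1 and 1.56-fold without library 4, and with library totals as scaling they spanned 1.96 and 1.98-fold. In the older counts Pdk1, Cpt1a, Hadhb, Glud1 and Suclg2 were past 2-fold and Cpt2 spanned 1.81-fold.

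The calls of several genes rested on single libraries. Without library 1, Mpc1, Dld, Pdk1 and Suclg1 lost the call, with adjusted p of 0.26, 0.053, 0.21 and 0.10. Without library 2, Idh3b, Dlst, Suclg1 and Acat1 lost it, with adjusted p of 0.28, 0.23, 0.50 and 0.48. Without library 3, Idh2, Sucla2 and Etfb lost it, with adjusted p of 0.26, 0.36 and 0.34. Without library 4 only Sucla2 did, with an adjusted p of 0.14. The pyruvate dehydrogenase E1 genes, Cs, Ogdh, Mdh2, Suclg2, Idh3g, Dlat, the 3 shuttle genes, Acadvl, Acadm, Hadh, Hadha, Hadhb, Etfdh, Glud1 and Got2 passed with any single library left out.

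The libraries were not ranked evenly. By scaled counts, 22 of the 34 genes were highest in library 2, against 27.7% of all tested genes and 33.3% of the deeper ones. Library 4 was the lowest for 17 of the 34, against 24.6% and 28.4%. Of the 14 genes called with a span of at least 1.5-fold, 12 were lowest in library 4, against 24.5% of all genes called with such a span and 34.6% of the deeper ones. Hadhb is 1 of the 12 only by a margin of under 1 CPM over library 3. With library totals in place of TMM scaling (a trimmed-mean correction for composition), 17 were highest in library 2, against 20.9% of all tested genes and 24.6% of the deeper ones, and 16 were lowest in library 4, against 22.7% and 26.3%. Library 4 was also the shallowest library, and the part of depth in this order was not tested. The map of deviations by library shows that Slc25a20, Cpt1a, Cpt2 and Hadh share the low values of library 4 with Mdh2, Cs, Ogdh and Suclg2, while Hadhb was low in libraries 3 and 4 alike. In RNA from bulk cells, fewer cells of a type and less RNA per cell cannot be told apart.

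**Figure D2:**
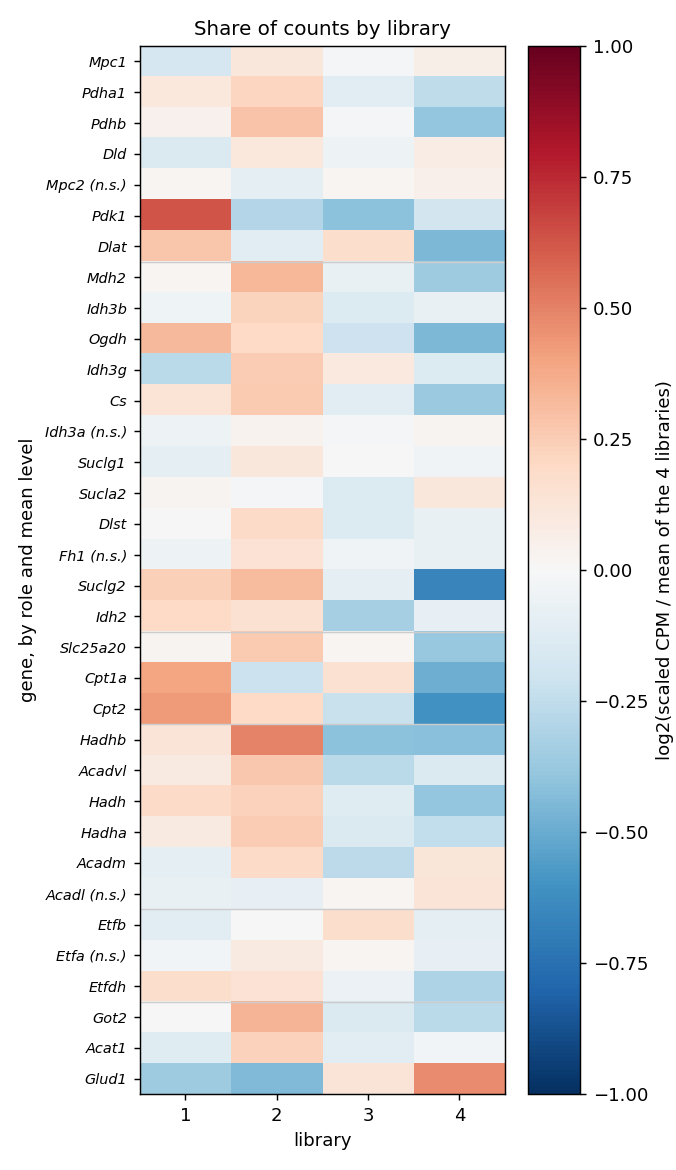
Each row is a gene and each column a library. Colour is the log2 ratio of the gene's TMM-scaled count (as CPM) to its mean over the 4 libraries, red above and blue below, and n.s. marks the 5 genes that did not pass the test. The red cell of Pdk1 is in library 1, and the blue cells of Cpt2 and Suclg2 are in library 4.

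Partner genes were compared as log2 ratios of TPM + 0.1 within each library for 20 pairs. With 4 libraries the exact permutation test by sign flips (two-sided) cannot go below p = 0.125 (0.139 after adjustment over the pairs), so no pair can be called, and the sizes are given against the spread. In 18 pairs all 4 libraries had the same sign, and in 14 of these the mean was also more than 2 SD from 0. The exceptions were Pdha1 over Ogdh and Idh3b over Idh3g, at 0.08 ± 0.10 and 0.11 ± 0.16 (SD, n = 4), each with libraries on both sides of 0. Neither ratio was stable across tables. With protein-coding transcripts alone Idh3b over Idh3g came to 0.48 ± 0.26, above 0 in all 4 libraries, and without the correction for length to 0.52 ± 0.19. Pdha1 over Ogdh came to -0.59 ± 0.19 in the older counts, below 0 in all 4 libraries, and to 0.48 ± 0.23 with protein-coding transcripts alone. Subunits of a complex were far apart for Dlat over Pdha1, at -3.70, -3.95, -3.97 and -3.69 on the log2 scale in libraries 1 to 4. Dlst over Ogdh, the same E2 to E1 comparison in the sister complex, came to -1.30 ± 0.29. Mpc1 over Mpc2 came to 1.52 ± 0.25 in the main table but to 0.11 ± 0.22 in the older counts, with libraries on both sides of 0. Sucla2 over Suclg2 came to 0.76, 0.67, 0.85 and 1.80 in the 4 libraries, far higher in library 4, where Suclg2 had its lowest value, and to 2.33 ± 0.61 in the older counts.

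Acadvl over Acadl came to 2.10 ± 0.36 and Acadm over Acadl to 0.39 ± 0.26, the latter turning to -0.12 ± 0.21 with protein-coding transcripts alone. Cpt1a over Cpt2 came to 0.58 ± 0.35 and turned to -0.46 ± 0.26 in the older counts. Hadha over Hadhb came to -0.89 ± 0.28 in the main table. It turned to 0.60 ± 0.39 in the older counts and fell to -3.41 ± 0.29 with protein-coding transcripts alone, and both shifts were larger than the spread over libraries. Pdha1 over Pdhb, at 0.31 ± 0.07, likewise turned to -0.24 ± 0.12 in the older counts. Etfdh over Etfa, at -1.63 ± 0.15, was -1.68 ± 0.25 there. The plot of partner ratios shows these shifts beside the library values.

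**Figure D3:**
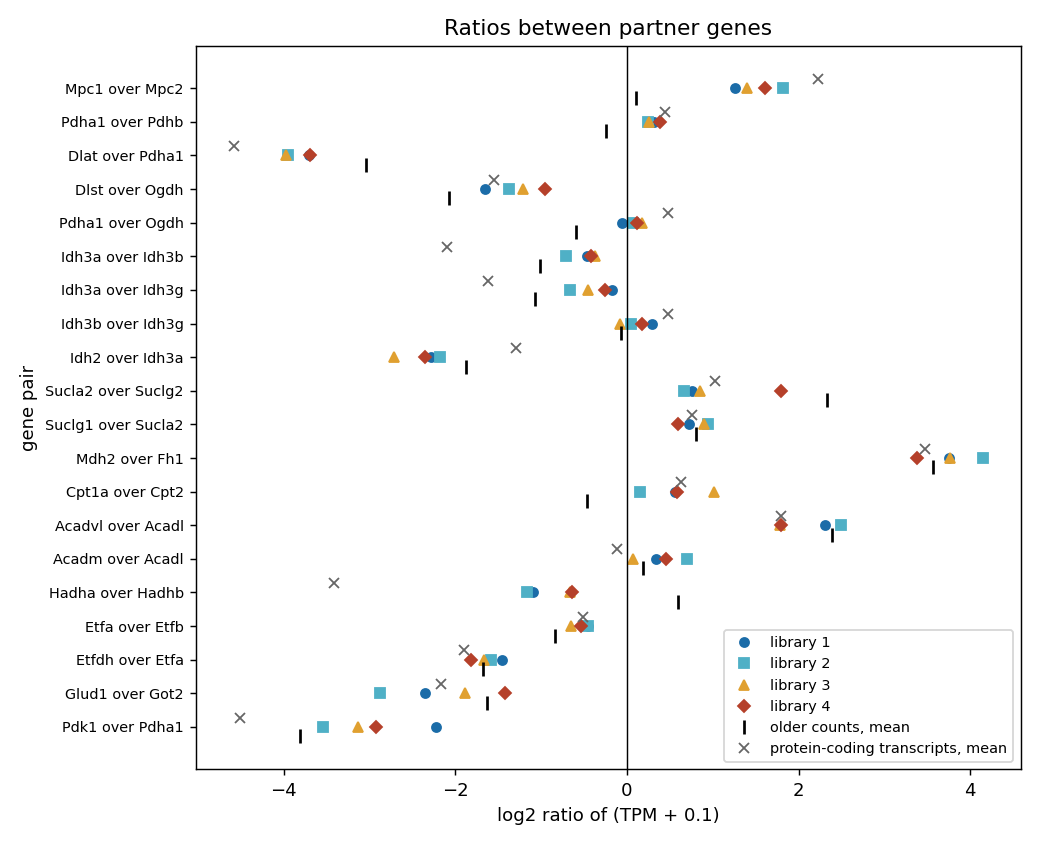
Log2 ratio of TPM + 0.1 for 20 gene pairs. Symbols are the 4 libraries, vertical ticks the mean in the older counts and crosses the mean over protein-coding transcripts. Hadha over Hadhb lies below 0 in all 4 libraries, while its older-count tick lies above 0 and its cross lies at -3.41.

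The share of a gene's TPM that sits in transcripts annotated as protein-coding was 86.6% in the median of the 34 genes, against 84.4% in the 6177 protein-coding genes at 10 TPM or more. It was under 50% in Hadha, Idh3a and Pdk1, 3 of the 34, against 18.1% of those genes. These shares were 15.97% ± 1.05, 31.1% ± 4.63 and 31.96% ± 7.27 (SD, n = 4). The leading transcript held 80% or more of the TPM in 17 of the 34 and less in the others, against 67.2% with less among those 6177 genes. It is not protein-coding in the same 3 genes, against 13.6%. In 30 genes the leading transcript is linked to a RefSeq mRNA in the annotation. For the TCA genes with a lower share, Mdh2-201 held 65.6% ± 3.19 and Mdh2-203, annotated as a target of nonsense-mediated decay, 30.1% ± 2.73. Idh3g-201 held 72.9% ± 3.72, Dlst-201 59.3% ± 7.38, Fh1-201 68.4% ± 7.93 and Idh2-201 66.2% ± 9.23. Ogdh was split between Ogdh-201 at 46.2% ± 4.97, a short retained-intron transcript, Ogdh-205, at 29.4% ± 7.28 and the coding Ogdh-202 at 19.9% ± 2.66. By counts Ogdh-205 was minor, with 142, 210, 166 and 135 counts against 2434, 1963, 1699 and 967 for Ogdh-201, because TPM gives few reads on a short transcript a large weight.

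Sucla2 was led by Sucla2-201 at 49.9% ± 6.56, with Sucla2-203 at 44.6% ± 4.70. All 1545 bases of Sucla2-201 are found in Sucla2-203, and Sucla2-203 had the more counts. Idh3a was led by the retained-intron transcript Idh3a-203 at 47.6% ± 6.89. The coding transcript with a RefSeq link, Idh3a-201, had 0 counts in all 4 libraries of the main table and 584, 635, 575 and 528 in the table made from reads and index. The reverse held for Idh3a-205, whose 2580 bases contain all 2403 bases of Idh3a-201. It had 491, 611, 483 and 444 counts in the main table and 0, 0, 46 and 0 in the other. The coding share of Idh3a stayed low in both tables, at 31.1% and 34.4%, although the leading transcript changed from Idh3a-203 to the nonsense-mediated decay transcript Idh3a-204.

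Among the pyruvate entry genes, Dld-201 held 79.4% ± 2.66, Mpc2-201 59.4% ± 9.32 and Dlat-201 56.4% ± 16.01. Pdk1 was led by the processed transcript Pdk1-208 at 40.5% ± 8.02, ahead of the coding Pdk1-201 at 31.96% ± 7.26. The coding transcript Pdk1-201 carried 364, 204, 134 and 146 counts and Pdk1-208 220, 97, 157 and 111, so the high value of library 1 was in both. In fatty acid oxidation, Acadm-201 held 70.2% ± 4.05, Hadhb-201 67.6% ± 6.38 and Etfdh-201 67.7% ± 18.01. Etfdh-201 ran from 88.8% in library 1 to 46.6% in library 4, and the table made from reads and index gave it 27.8% ± 2.90, behind Etfdh-202 at 38.7% ± 5.70. Etfdh and Idh3a were the 2 of 34 genes whose leading transcript differed between these tables, against 14.4% of protein-coding genes at 10 TPM or more.

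**Figure D4:**
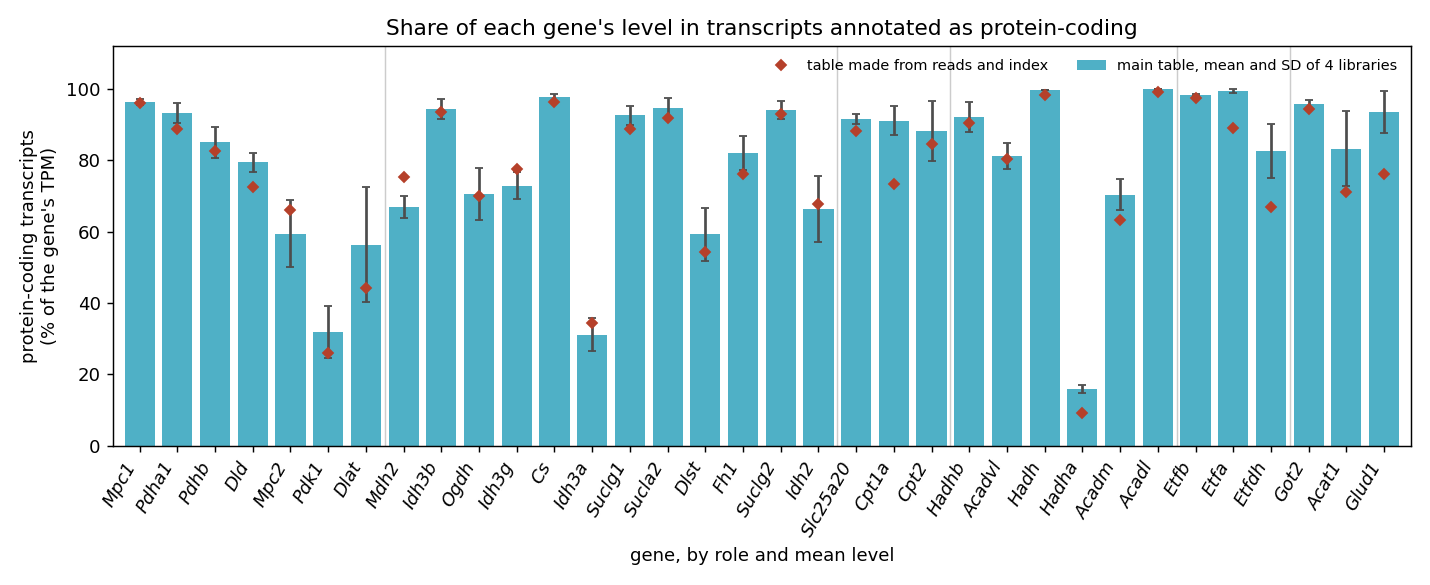
Percent of each gene's TPM in transcripts annotated as protein-coding. Bars are the mean of the main table with its SD over 4 libraries, and diamonds the mean of the table made from reads and index. Hadha, Idh3a and Pdk1 are the 3 bars under 50%, and their diamonds are low too.

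Each library was quantified 3 times by the authors, and the level of some genes turned on the table used. Against the main table, the table made from reads and index differed by a median log2 of -0.26 over the 34 genes and -0.14 over all genes at 1 TPM or more in both. None of the 34 was higher or lower by over 1.5-fold, against 5.41% of genes higher and 0.69% lower. The older whole-number counts, made on an earlier annotation and divided here by length, differed by a median of 0.34 over the 34 and 0.04 over all. In them 7 of the 34 were higher by over 1.5-fold (Acadvl, Cpt2, Etfb, Fh1, Idh3g, Sucla2 and Suclg1), against 16.2% of genes, and 5 were lower (Got2, Hadhb, Mpc1, Pdk1 and Suclg2), against 23.3%.

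The lower genes were compared with near-identical copies elsewhere in the genome, searched in the annotated transcripts at 95% identity or more over 300 bases or more. Such a copy with reads assigned to it was found for 4 of the 5 lower genes and for 1 of the other 29, Pdhb. Glud1, not among the 5, has Glud-ps at 97.6% identity over 656 bases, with 0 counts in the main table. How often other genes have such copies was not computed, so these counts have no background. Hadhb has the processed pseudogene Gm13910 on chromosome 2, at 99.8% identity over 1428 bases. The main table gave Gm13910 89, 140, 37 and 26 counts in libraries 1 to 4, and the table made from reads and index 0, 5, 0 and 0. Suclg2 has Gm15163 on chromosome X, at 99.1% over 1216 bases, with 31, 36, 28 and 4 counts against 0, 2, 0 and 0. Got2 has Got2-ps1 on chromosome 5 at 99.1% over 1293 bases, with only 9, 14, 7 and 3 counts in the main table. The long noncoding RNA gene Gm10874 spans the same place and matches Got2 at 98.8% over 1637 bases. It had 9, 0, 4 and 14 counts in the main table and 4, 7, 5 and 4 in the older counts. Mpc1 has Mpc1-ps at 99.7% over 330 bases. In the older counts Hadhb stood at 62.5 ± 23.1 TPM against 124 ± 38.2 TPM in the main table, Mpc1 at 71.98 ± 2.16 TPM against 147 ± 10.1 TPM, Got2 at 51.1 ± 7.05 TPM against 95.6 ± 13.1 TPM and Suclg2 at 17.4 ± 5.32 TPM against 28.5 ± 7.45 TPM. The sources used here do not say how the older counts treated reads that match several places, and the part of the copies in the lower values was not tested. Pdk1, the remaining lower gene, stood at 8.80 ± 5.84 TPM against 19.3 ± 9.42 TPM and has no such copy. The levels of these 5 genes, and of Pdhb, are therefore uncertain to the extent the tables differ.

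**Figure D5:**
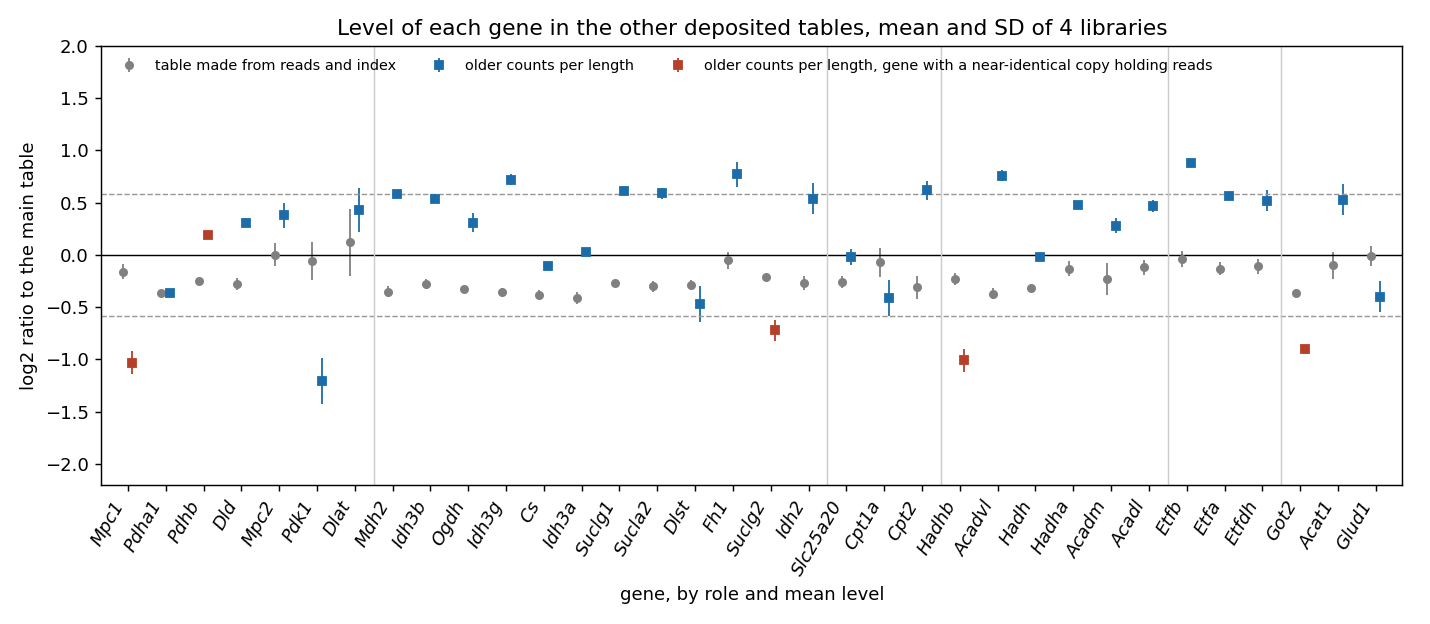
Log2 ratio of each gene's level to the main table, as mean and SD over 4 libraries, for the table made from reads and index (circles) and for the older counts per length (squares, red for genes with a near-identical copy holding reads). Dashed lines mark 1.5-fold. Of the 5 squares below the lower line, those of Mpc1, Suclg2, Hadhb and Got2 are red, and that of Pdk1 is blue.

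Genes that overlap a member on the genome add a further limit, since the sources used here do not name the strand setting of the counting. The bodies of 15 of the 34 genes overlap another annotated gene. In 6 of them the neighbour's own count, over its whole length, came to over 5% of the member's count. That ratio does not measure shared reads, as Nop56 came to 188% of Idh3b with only 5 shared bases. The share of all genes with such neighbours was not computed. For Pdha1, the opposite-strand gene Map3k15 shares 1143 bases at the 3′ ends. Map3k15 was given 19, 13, 10 and 18 counts by the main table and 727, 803, 652 and 517 by the older one. Pdha1 itself stood at 110.0 ± 13.9 TPM in the older counts against 141 ± 17.9 TPM. For Etfdh, the opposite-strand gene 4930579G24Rik shares 422 bases, and its own whole-gene count came to 19.4% of that of Etfdh.

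Promoter windows of 300 bases around the first listed start of each gene were found in the RefSeq table on GRCm38.p6 for 32 of the 34 genes (not for Acat1 and Idh3a) and for 27025 genes in all. Short motifs were searched on both strands, and a match is a description of letters and not a site of binding. The GC box GGGCGG, the core of Sp1 sites, was found in 23 of 32 windows against 35.9% of all. CCAAT was found in 15 against 37.9%, and the ETS core CCGGAAG, bound by GABP among others, in 7 against 9.12%. TATAAA was found only in Got2, against 14.2% of all windows. The estrogen-related receptor half-site AAGGTCA was found only in Acadm, against 4.66%.

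The rest of the pathways was read from lists of further genes. Of 22 other pyruvate and TCA genes, 18 were at 1 TPM or more in every library and 11 at 10 TPM or more. Among nuclear protein-coding genes these shares were 45.2% and 28.1%. The highest were Mdh1, the cytosolic malate dehydrogenase, at 313, 293, 319 and 291 TPM and Sdha, the flavoprotein subunit of succinate dehydrogenase, at 283, 290.2, 221 and 265 TPM. Pdk4, the kinase induced in fasting muscle and liver, and Ogdhl had 0 counts in all libraries of the main table. Pdk2 and Pdk3 stood at 9.91 ± 3.31 TPM and 11.7 ± 3.95 TPM, below the mean of Pdk1 that its library 1 value raised, and in library 3 Pdk3 read 15.8 TPM against 15.6 TPM for Pdk1. In the older counts both were above Pdk1, at 10.2 TPM and 15.8 TPM against 8.80 ± 5.84 TPM. Of the 19 of these genes that could be tested, 18 differed between libraries. The background was 68.6% of all tested genes and 85.7% of those whose mean count reached 200.

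Of 27 other fatty acid oxidation genes, 22 were at 1 TPM or more in every library, against 45.2% of nuclear protein-coding genes. Between libraries, 20 of 24 tested differed, against 68.6% of all tested genes and 85.7% of those whose mean count reached 200. Hsd17b10, a 3-hydroxyacyl-CoA dehydrogenase, and Acaa2, the mitochondrial thiolase, were the highest at 99.9 ± 8.65 TPM and 86.7 ± 18.2 TPM. Acsl6 was the lowest, with 1 count over the 4 libraries. The muscle and brain forms Cpt1b and Cpt1c stood at 0.505 ± 0.168 TPM and 0.655 ± 0.548 TPM, so Cpt1a was the predominant Cpt1 RNA in every library. Of 15 amino acid, shuttle and ketone genes, 13 were at 1 TPM or more in every library and 11 of 13 tested differed, against the same background shares. Slc25a11, the oxoglutarate carrier, was the highest at 82.4 ± 1.54 TPM, and Gls2, which releases glutamate from glutamine, was the lowest at 0.0675 ± 0.0991 TPM.

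Of 15 measured regulators, 9 were at 1 TPM or more in every library, against 45.2% of nuclear protein-coding genes. Between libraries, 6 of 9 tested differed, against 68.6% of all tested genes and 85.7% of those whose mean count reached 200. Nrf1 and Tfam, factors of mitochondrial gene expression, were the highest at 66.7 ± 8.03 TPM and 62.2 ± 11.8 TPM. Esrrg and Prkaa2 had 0 counts in the main table, while the table made from reads and index gave Esrrg 1.24 TPM. Ppara, the nuclear receptor best known for driving fatty acid oxidation in liver, had 1 count in library 1 and 0 in the others, and Ppargc1a stood at 0.1 ± 0.0698 TPM. Their relatives Ppard and Ppargc1b stood at 2.16 ± 0.537 TPM and 8.09 ± 1.01 TPM. The 19 glycolysis genes summed to 3987 ± 565 TPM, against 2938 ± 256 TPM for the 34 genes. They were led by Aldoa and Ldha at 808 ± 145 TPM and 687 ± 32.9 TPM, and Slc16a3, a lactate exporter, was their lowest at 1.69 ± 0.964 TPM.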

How the data were processed

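PolyA RNA was measured in 4 libraries of 1 group. Per the file headers, the authors deposited a gene and a transcript table of expected counts, TPM and, for transcripts, the percent of the gene's TPM, with an interval per TPM whose level is not stated. Per the submitters' notes these rest on a transcriptome alignment to mm10 with GENCODE M21. The authors also deposited estimated counts and TPM per transcript made from the reads and an index on the same annotation, and gene counts in whole numbers, on GENCODE M4 and from a genome alignment. The sources used here do not name the programs or strand settings.

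The 34 genes, the gene lists, the pairs and the tests were chosen with earlier results of these data known. Expected counts were rounded. Rows outside the annotation (0.133%, 0.179%, 0.178% and 0.504% of counts) were left out. Differences between libraries were tested per gene with a Poisson likelihood ratio chi-square of 3 degrees of freedom on TMM-scaled library sizes (edgeR 4.0.16, R 4.3.3), in genes whose mean count reached 10, adjusted by Benjamini-Hochberg over all 13045 at 0.05. DESeq2 1.42.0 gave other size factors. No quasi-likelihood test was possible with 1 group. The span is the ratio of the highest to the lowest scaled count. On simulated Poisson counts (13045 genes, 50 per fold) the test found 74% and 80% of genes changed 1.5 and 2-fold in 1 library. It found 100% at 4 and 8-fold and called 0.039% of unchanged genes. These counts hold only the counting noise that the test itself assumes, so the rates do not carry over to the real libraries. Those had a common coefficient of variation beyond counting noise of 21.3% (edgeR). Ratios were taken on log2(TPM + 0.1), which understates differences of low genes, and tested with an exact sign-flip permutation. TPM of the index table was scaled to the nuclear protein-coding total of the main table. The M4 counts (22195 genes matched) were divided by effective length with a minimum of 50 bp and scaled likewise. The comparison with genes whose mean count reached 200 was added after seeing the data. Copies were searched with blastn 2.17.0. Sequences came from the M21 transcripts and RefSeq.

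All 34 genes are named. Values per library are given for the highest and lowest gene of each role, partners and the 5 widest spans, and of other lists for the 2 highest and the lowest. Further pathway genes (Pdk2, Pdk3, Cpt1b, Cpt1c, Ppara, Ppard, Ppargc1a and Ppargc1b) were named after their values were seen, and some genes of these lists are not reported here. Counting error sets a floor under each value, and library 4 is the shallowest.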

Additional observations from a re-analysis of the deposited data

Results flagged for a closer look

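Pdk1, the pyruvate dehydrogenase kinase, was highest in library 1, at 33.4 TPM against a mean of 14.7 TPM in the other 3 libraries. It was singled out because the gap between library 1 and the next library made up 0.873 of the whole range of its 4 values. By chance about 1 in 20 groups of 4 values would show such a gap, and 34 genes were examined. Library 1 also held the highest erythroid marker sum, 1067 TPM against 4.60, 38.6 and 17.5 TPM in libraries 2, 3 and 4. The B cell marker sum was highest there too, at 1421 TPM against 1088, 1238 and 848 TPM, as was the myeloid one, at 40.7 TPM against 10.8, 8.49 and 21.3 TPM. The part of these cells in the Pdk1 value was not tested.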

How the results depend on the processing

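No paired analysis was possible because there is only 1 group. The median level of the 34 genes was 56.7 TPM in the table made from reads and index and 71.0 TPM in the older counts per length, against 65.4 TPM. The cause was not tested. The count of genes that differed between libraries was 8940 of 13045 (68.5%) with DESeq2 size factors, 9021 of 13045 (69.2%) with library totals, 9615 of 25782 (37.3%) without a filter on low counts, 8541 of 10877 (78.5%) in the older counts and 10848 of 17357 (62.5%) in the index table. The count among the 34 was 29, 28, 28, 32 and 30 under the same settings. With 1 library left out, the count over all genes ran from 7049 to 8154 (53.9% to 62.0% of those tested), the count among the 34 from 25 to 28, the median from 63.8 to 67.4 TPM, the number at 10 TPM or more from 32 to 33, and the number that kept its leading transcript from 33 to 34. The mean of a pair's ratio changed sign in the older counts for Pdha1 over Pdhb (-0.24 ± 0.12), Hadha over Hadhb (0.60 ± 0.39), Cpt1a over Cpt2 (-0.46 ± 0.26), Pdha1 over Ogdh (-0.59 ± 0.19) and Idh3b over Idh3g (-0.07 ± 0.18). It did so without length correction for Etfa over Etfb (0.32 ± 0.11), Idh3a over Idh3g (0.36 ± 0.21) and Pdha1 over Ogdh (-0.11 ± 0.17), and with protein-coding transcripts only for Acadm over Acadl (-0.12 ± 0.21). The level moved by more than its SD in 20 of 34 genes in the index table, 27 in the older counts, 17 with protein-coding transcripts only, and 0 with any single library left out. Depth limits Dlat, Idh2 and Cpt2 most, with mean counts nearest the lowest of 167.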
